A study of Mus musculus with 64 samples.

Results

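The subunits of the proteasome were followed over the day in WT and FANKO mice, in brown fat (BAT) and in the epididymal white depot (eWAT). Members were the protein-coding mouse genes whose symbol is Psma, Psmb, Psmc or Psmd followed by digits alone, without the interferon-inducible *Psmb8*, *Psmb9* and *Psmb10*. This gave 36 genes of the 52636 identifiers in the count table, and 35 of them passed the filter on low counts, as did 20249 genes in all. A further symbol with the same start, *Psmc3ip*, has letters after its digits, encodes a protein of meiotic recombination and not a subunit, and is described apart. FANKO mice carried the *Nampt* tm1Jtree allele, in which exon 3 of *Nampt* is flanked by loxP sites, and the Adiponectin-Cre transgene, which is active in adipocytes of every depot and leaves the other cells of the tissue with an intact gene. WT mice were littermates without Cre that came from the same cross. All animals were males of 2 to 4 mo, fed chow ad libitum. RNA was sequenced at zeitgeber time (ZT) 6, 10, 18 and 22, with lights on at ZT 0, with 4 samples for each of 16 combinations of time, depot and genotype, which gives 16 of the 64 samples to a depot and genotype.

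The proteasome degrades proteins tagged with ubiquitin. Its barrel, the 20S core, is built of stacked rings of alpha subunits (Psma genes) and beta subunits (Psmb genes), and the active sites lie inside on the beta subunits encoded by *Psmb5*, *Psmb6* and *Psmb7*. The 19S particle caps the barrel. Its base holds the ATPases (Psmc genes) that unfold substrates together with large scaffold and ubiquitin-receptor subunits, and its lid holds the deubiquitinase encoded by *Psmd14* and other Psmd proteins. In brown fat the transcription factor NFE2L1, which raises proteasome genes when proteasome activity is short, is known to keep protein turnover up during thermogenesis.

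The libraries held 6117343 to 30544847 counts (median 15826651), and every member other than *Psma8* and *Psmb11* had at least 74 counts in every sample. *Nampt* was counted over the whole gene, so that reads outside the floxed exon remain. Its median was 702 CPM (counts per 1000000) in WT BAT against 143 in FANKO BAT and 149 in WT eWAT against 114 in FANKO eWAT. In WT mice mitochondrial transcripts made up 24.6% of BAT and 6.55% of eWAT counts at the median, and in FANKO mice 14.7% of BAT and 10.7% of eWAT counts, so the scaling between libraries matters here. Levels are given as CPM after scaling by TMM, which takes most genes as unchanged. Scaling by library size alone moved the median difference of all genes tested by 0.58 on the log2 scale for FANKO minus WT in BAT, by -0.25 for the same in eWAT, by -0.74 for BAT minus eWAT in WT mice and by 0.83 for the difference of genotype effects between depots. A change of scaling moves all genes by nearly the same amount, so the position of the members relative to all genes can hardly change. That position is therefore no check of the scaling. In BAT 26 of the 34 members other than *Psma8* lay below the median difference of all genes, and all 34 lay above it in eWAT. Defining markers of the tissue were present, with *Ucp1* and the other brown adipocyte markers summing to a median of 6526 CPM in WT BAT and 14.1 CPM in WT eWAT.

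The upstream sequences of a few subunits are shown here. Some were chosen because they hold a motif match in the 150 bases before the start, whatever their change in level. The others hold no match and were chosen for their large differences. RefSeq promoter windows on GRCm38.p6, from 250 bases before to 50 bases after the start, were found for 29 members (31 windows). *Psmb5* and *Psmb6* encode catalytic subunits, *Psmd9* a chaperone of the base, and all 3 hold the core of the antioxidant response element, TGACNNNGC, to which NFE2L1 dimers bind. *Psmb3* and *Psmd8*, which gave large depot and genotype differences beside *Psmb5*, hold no match. Each sequence is the 150 bases before the RefSeq start, 5′ to 3′ on the strand of the gene, and capitals mark the match. Gene coordinates given further on come from GENCODE, whose starts differ. The windows of *Psmb3*, *Psmb5* and *Psmd8* reach into the gene as annotated there, and that of *Psmd9* lies within it.
Psmb5 (chr14:54617996-54618145, minus strand): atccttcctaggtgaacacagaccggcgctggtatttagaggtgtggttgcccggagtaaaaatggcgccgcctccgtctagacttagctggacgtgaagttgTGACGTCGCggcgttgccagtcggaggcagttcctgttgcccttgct
Psmb6 (chr11:70525207-70525356, plus strand): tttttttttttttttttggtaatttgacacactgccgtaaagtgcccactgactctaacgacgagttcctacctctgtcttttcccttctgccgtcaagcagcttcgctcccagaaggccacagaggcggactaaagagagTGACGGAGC
Psmd9 (chr5:123228040-123228189, plus strand): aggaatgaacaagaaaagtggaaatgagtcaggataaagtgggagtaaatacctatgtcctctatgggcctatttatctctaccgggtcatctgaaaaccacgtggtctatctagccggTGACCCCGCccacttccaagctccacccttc
Psmb3 (chr11:97703284-97703433, plus strand): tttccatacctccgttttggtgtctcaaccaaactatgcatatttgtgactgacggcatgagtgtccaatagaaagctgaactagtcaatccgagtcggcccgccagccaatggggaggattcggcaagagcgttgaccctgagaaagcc
Psmd8 (chr7:29180674-29180823, minus strand): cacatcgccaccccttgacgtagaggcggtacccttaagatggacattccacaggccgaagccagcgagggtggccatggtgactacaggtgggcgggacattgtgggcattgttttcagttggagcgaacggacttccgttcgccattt

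The match in *Psmb5* began 47 bases before the start, that in *Psmd9* 31 bases and that in *Psmb6* 9 bases before it. *Psmc6* and *Psmd12* held the element on the other strand, 227 and 247 bases upstream. Counted on both strands, the core was present in 5 of 31 member windows (16.1%) and in 12.4% of all 32851 windows. The CCAAT box was present in 12 member windows (38.7%) against 37.4% of all, the E-box CACGTG in 2 (6.45%) against 7.15%, and the heat shock element core GAANNTTC in 1, that of *Psmb5*, against 7.86%. These shares lay near those of all promoters. The letters were matched for each motif by itself, without regard to overlaps between motifs, and a match describes the sequence only.

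Per kilobase of annotated exon, the members spanned a wide range in each group, and the assembly chaperones lay low. In WT BAT the median over the 14 core subunits was 38.2 CPM per kb, over the 17 members in the 19S particle 34.4 and over the 3 chaperones 6.36. *Psmd11* of the lid, at 9.84, still lay below the chaperone *Psmd10*, at 10.8. In WT BAT the median CPM per kb ran from 2.29 for *Psmd9* to 124 for *Psma6*, an alpha ring subunit, and over the 34 members other than *Psma8* it had a median of 33.3. The corresponding median was 28.8 in BAT of FANKO mice, and in eWAT it was 19.4 for WT and 27.9 for FANKO mice. *Psma6* was the highest and *Psmd9* the lowest in each of the 4 groups. Among the 17 members in the 19S particle, *Psmd8* of the lid was highest in WT BAT, at 61.7 CPM per kb, in FANKO BAT, at 62.4, and in FANKO eWAT, at 65.8. In WT eWAT the highest was *Psmd2* of the base, at 42.1. Exon lengths were taken over all annotated transcripts, so genes with long unused exons come out low.

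**Figure D1:**
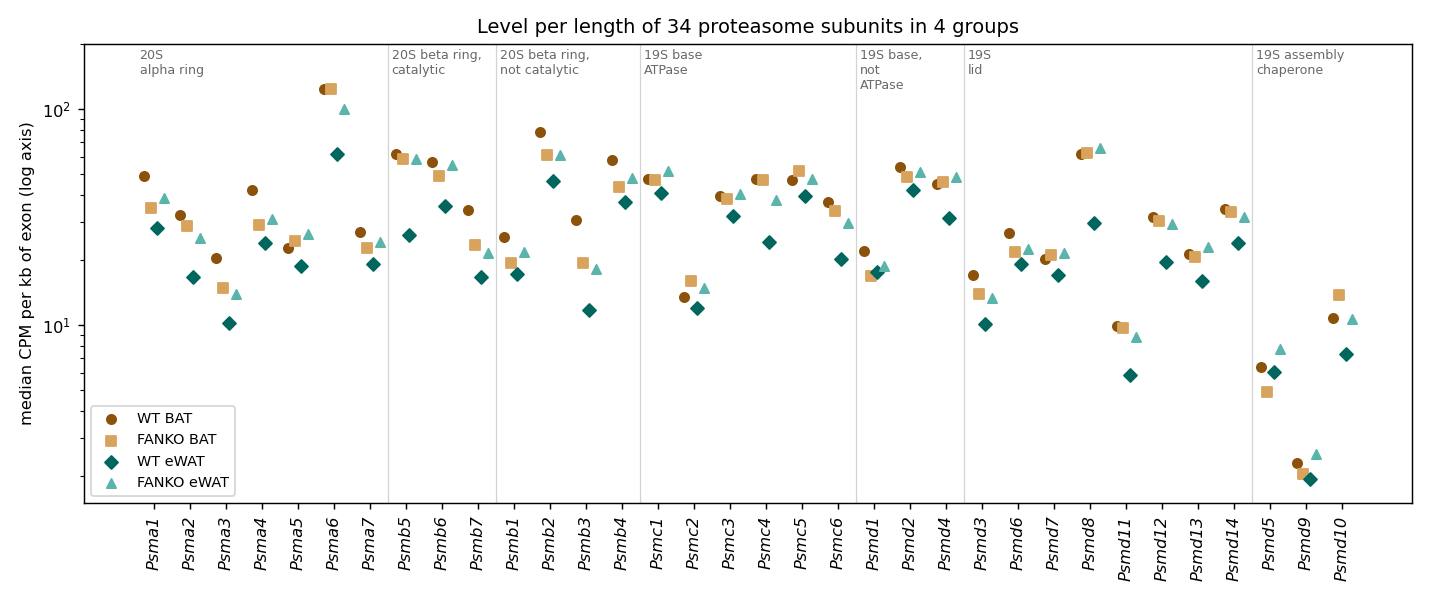
Median level per kilobase of exon (CPM per kb, log axis) of 34 proteasome subunits in 4 groups of 16 samples each, ordered by role, without the barely detected *Psma8* and *Psmb11*. *Psma6* is the highest in every group, at 124 CPM per kb in WT BAT, and on the TMM scale the WT eWAT symbols lie lowest for most subunits, with a median of 19.4, while with library size alone the WT depot difference reverses for most members.

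In WT mice the subunits were higher in BAT than in eWAT, and in FANKO mice the depots lay close together. In WT mice 33 of 35 members were called higher in BAT and 1, *Psma8*, lower, against 32.7% and 41.1% of all genes tested (73.7% in either direction). A call is an edgeR quasi-likelihood test with a Benjamini-Hochberg adjusted p below 0.01 over all genes. The median member difference was 0.59 on the log2 scale, beside -0.11 for all genes. For 14 members every WT BAT sample lay above every WT eWAT sample, which held for 12% of all genes, while with library size alone it held for 0 members and 3.69% of genes. Relative to the median of all genes within each sample, a scale added after the data were seen, it held for 29 members and 21% of genes. For 0 members did every WT BAT sample lie below, against 15.1% of all genes. In FANKO mice 6 members were called higher in BAT and 6 lower, against 28.1% and 31.6% of all genes (59.7% in either direction), and the median member difference was -0.04 beside -0.01 for all genes. These counts moved with the processing, to 10 higher and 2 lower with DESeq2 and with RLE factors, to 11 and 1 with library size alone and to 3 to 7 and 2 to 6 without 1 replicate number. In FANKO mice every BAT sample lay above every eWAT sample for 0 members (5.18% of all genes) and below for 1, *Psmd5* (9.01%). The 2 depot comparisons share no samples. An unadjusted p under 0.05 was reached by 34 members in WT mice (80.7% of all genes) and by 18 in FANKO mice (70.5%). With library size alone the WT depot difference changed direction for most members, with 8 called higher and 17 lower in BAT and a median of -0.16 beside -0.86 for all genes. RLE factors and DESeq2 each called 32 higher and 1 lower. Relative to the median difference of all genes the 34 members other than *Psma8* lay higher in BAT, which a change of scaling can hardly alter. The 8 that stayed higher in BAT with library size alone were *Psma2*, *Psma3*, *Psma6*, *Psmb3*, *Psmb5*, *Psmb7*, *Psmc4* and *Psmd8*.

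FANKO eWAT had higher subunit levels than WT eWAT. There 33 of 35 members were called higher and 0 lower by edgeR, against 27.6% and 22.8% of all genes tested (50.3% in either direction), DESeq2 also called 33 and 0, and no member had a fitted difference below 0. The median member difference was 0.38 beside -0.02 for all genes. The members not called were *Psmd1*, at 0.07 ± 0.05 (SE), and *Psma8*. The FANKO mean lay above the WT mean at all 4 time points for 34 members, which held for 31.7% of all genes, and for 7 members every FANKO sample lay above every WT sample, against 4.57% of all genes. This held for 3 members with library size alone (1.81% of genes) and for 6 relative to the median of all genes within each sample (4.65%). For 0 members did every FANKO sample lie below (1.33% of all genes) or the FANKO mean lie lower at all 4 time points (29.7%), and 34 members had an unadjusted p under 0.05 (64.2% of all genes). The 7 were *Psmb5*, *Psmb6*, *Psmd4*, *Psmd8*, *Psmd11*, *Psmd12* and *Psmd13*. With library size alone 15 members were called higher and 1, *Psmd1*, lower, at a median of 0.14 beside -0.27 for all genes.

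In BAT the same comparison gave lower levels for a part of the family, mostly in the core particle. On the TMM scale 17 members were called lower in FANKO mice and 3 higher (*Psma8*, *Psmd10* and *Psmc2*), against 33.9% and 33.1% of all genes tested (67.0% in either direction), and the median member difference was -0.14 beside 0.00 for all genes, whereas with library size alone 29 were called higher and 0 lower, at a median of 0.44 beside 0.58. For 2 members, *Psmb3* and *Psmb7*, every FANKO BAT sample lay below every WT BAT sample, against 10% of all genes, and with library size alone this held for 0 members (2.13% of genes). Relative to the median of all genes within each sample it held for 9 members, against 20.1% of all genes. For 0 members did every FANKO BAT sample lie above (12.5% of all genes). The FANKO mean was lower at all 4 time points for 17 members (35.1% of all genes) and higher for 3 (36.1%), and 24 members had an unadjusted p under 0.05 (75.4%). Of the 14 core subunits other than *Psma8*, 10 were called lower and 0 higher. Of the 17 members in the 19S particle 5 were called lower and 1 higher. The difference between core and cap was not tested.

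The genotype effect differed between the depots for most of the family. The effect in BAT minus that in eWAT was called below 0 for 31 of 35 members and above 0 for 0 by edgeR, against 32.1% and 32.2% of all genes tested (64.3% in either direction), while DESeq2 called 30 and 1 (*Psma8*), and 32 members had an unadjusted p under 0.05 (73.5% of all genes). The values had a median of -0.62 beside 0.04. The members not called were *Psma8*, *Psmc2*, *Psmc5* and *Psmd10*. By the separate tests, 16 members were lower in BAT and higher in eWAT, 15 were higher in eWAT and not called in BAT, and 2, *Psmc2* and *Psmd10*, were higher in both. *Psmd1* was lower in BAT and *Psma8* higher in BAT, and neither was called in eWAT. With library size alone the direction changed for most, with 18 members called above 0 and 3 below, at a median of 0.21 beside 0.88 for all genes. The 3 called below 0 under TMM, RLE factors and library size alone were *Psmb3*, *Psmb5* and *Psmd8*.

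**Figure D2:**
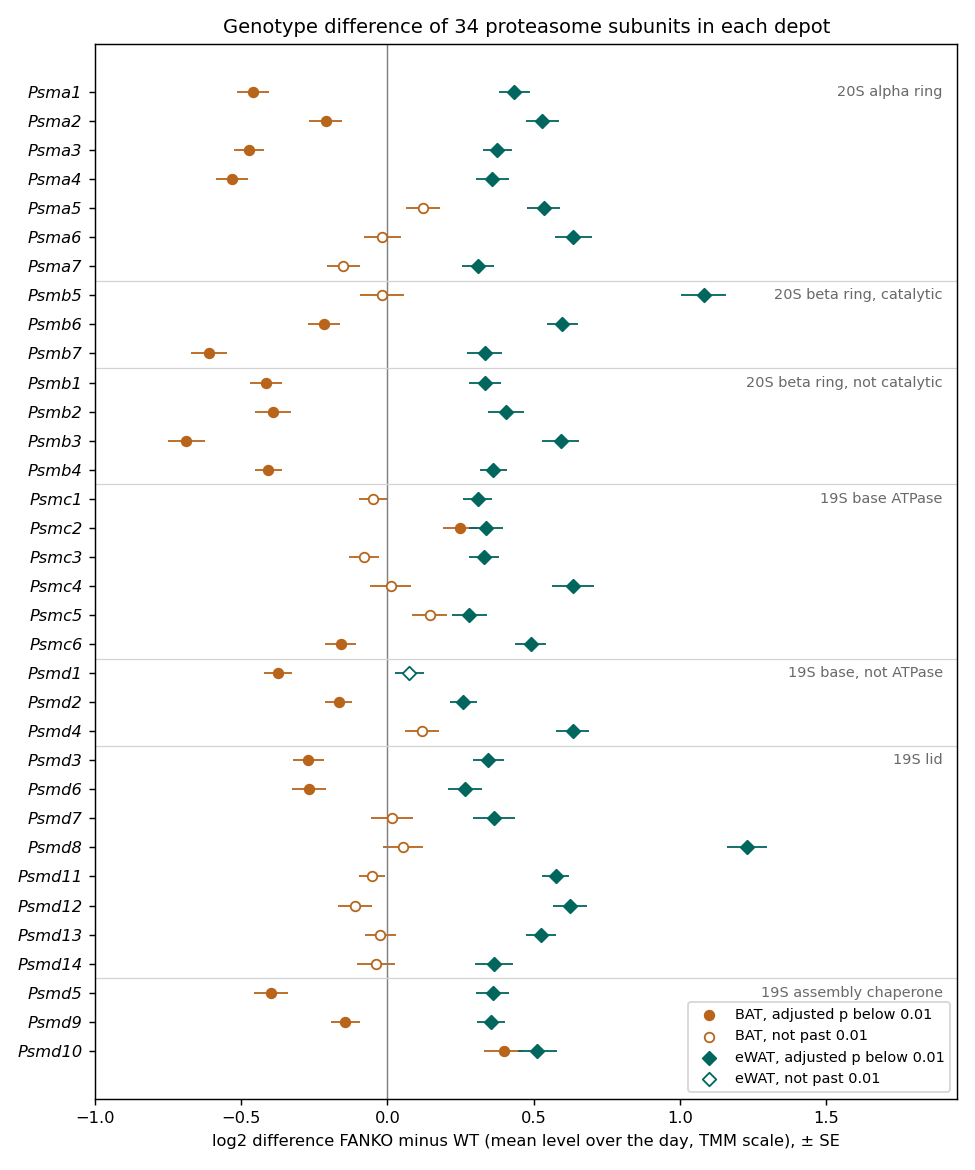
FANKO minus WT difference in mean level over the day for 34 subunits (log2, TMM scale; bars, SE of the fit over 64 samples), with BAT as circles and eWAT as diamonds, filled where the adjusted p is below 0.01, and subunits ordered by role. In eWAT 33 symbols are filled and lie right of 0, while in BAT 17 filled circles lie left of 0, most of them core subunits; with library size alone the BAT values move up by 0.58 and those in eWAT down by 0.25.

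The 3 catalytic subunits showed unlike courses. *Psmb5* (chr14:54614119-54618022 on GRCm38), the chymotrypsin-like subunit, ranged from 42.9 CPM through a median of 55.4 to 66.5 in WT BAT. In FANKO BAT it ran from 41.0 through 52.7 to 72.5, in WT eWAT from 17.02 through 23.4 to 34.2, and in FANKO eWAT from 41.2 through 52.5 to 58.6. WT eWAT thus stood apart, below every sample of the other 3 groups, and those groups overlapped. The difference FANKO minus WT was 1.08 ± 0.08 in eWAT (adjusted p = 1e-18) and -0.02 ± 0.07 in BAT (adjusted p = 0.83), and BAT minus eWAT was 1.2 ± 0.08 in WT and 0.10 ± 0.07 in FANKO mice. *Psmb5* shares 109 exon bases with the microRNA gene *Mir686* on its own strand.

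*Psmb7* (chr2:38588036-38644087), the trypsin-like subunit, was lower in FANKO than in WT BAT. It ran from 104 CPM through a median of 117 to 144 in WT BAT and from 62.7 through 79.9 to 93.9 in FANKO BAT, without overlap. In WT eWAT it ran from 43.4 through 57.2 to 79.0 and in FANKO eWAT from 66.4 through 74.0 to 83.5, with overlap. The difference FANKO minus WT was -0.61 ± 0.06 in BAT (adjusted p = 8.5e-14) and 0.33 ± 0.06 in eWAT (adjusted p = 3.5e-06). *Psmb7* shares 405 exon bases with *Nek6* on the opposite strand, and whether counting used strand is not given in the sources used here. *Psmb6*, the caspase-like subunit, had medians of 106 and 91.7 CPM in WT and FANKO BAT and of 66.8 and 103 CPM in WT and FANKO eWAT. Its eWAT groups did not overlap, with the highest WT sample at 89.1 and the lowest FANKO sample at 91.1 CPM, and its differences were -0.22 ± 0.05 in BAT (adjusted p = 3.1e-04), where library size alone gave 0.37, and 0.60 ± 0.05 in eWAT (adjusted p = 1.8e-14).

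The 4 structural beta subunits were all called lower in FANKO BAT and higher in FANKO eWAT on the TMM scale. Of all genes tested 33.9% were called lower in BAT and 27.6% higher in eWAT. With library size alone *Psmb1*, *Psmb2* and *Psmb4* were called higher in FANKO BAT and *Psmb3* was not called. *Psmb3* (chr11:97703399-97713500) had the largest decrease of the family in BAT and the largest excess of BAT over eWAT in WT mice. It ran from 59.1 CPM through a median of 70.7 to 83.0 in WT BAT and from 30.8 through 44.4 to 52.7 in FANKO BAT, without overlap. In eWAT it ran from 21.9 through 27.1 to 38.1 in WT and from 33.7 through 41.9 to 51.2 in FANKO mice, where the ranges overlapped. Its difference was -0.69 ± 0.06 in BAT (adjusted p = 6.2e-15) and 0.59 ± 0.06 in eWAT, BAT minus eWAT was 1.33 ± 0.06 in WT mice (adjusted p = 2.9e-27), and the difference of genotype effects, -1.28 ± 0.09, had the smallest p of all members (adjusted p = 1.9e-19). *Psmb1*, *Psmb2* and *Psmb4* fell by 0.39 to 0.41 in BAT and rose by 0.33 to 0.41 in eWAT. *Psmb1* was among the members lower in BAT than in eWAT of FANKO mice, at -0.20 ± 0.05.

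**Figure D3:**
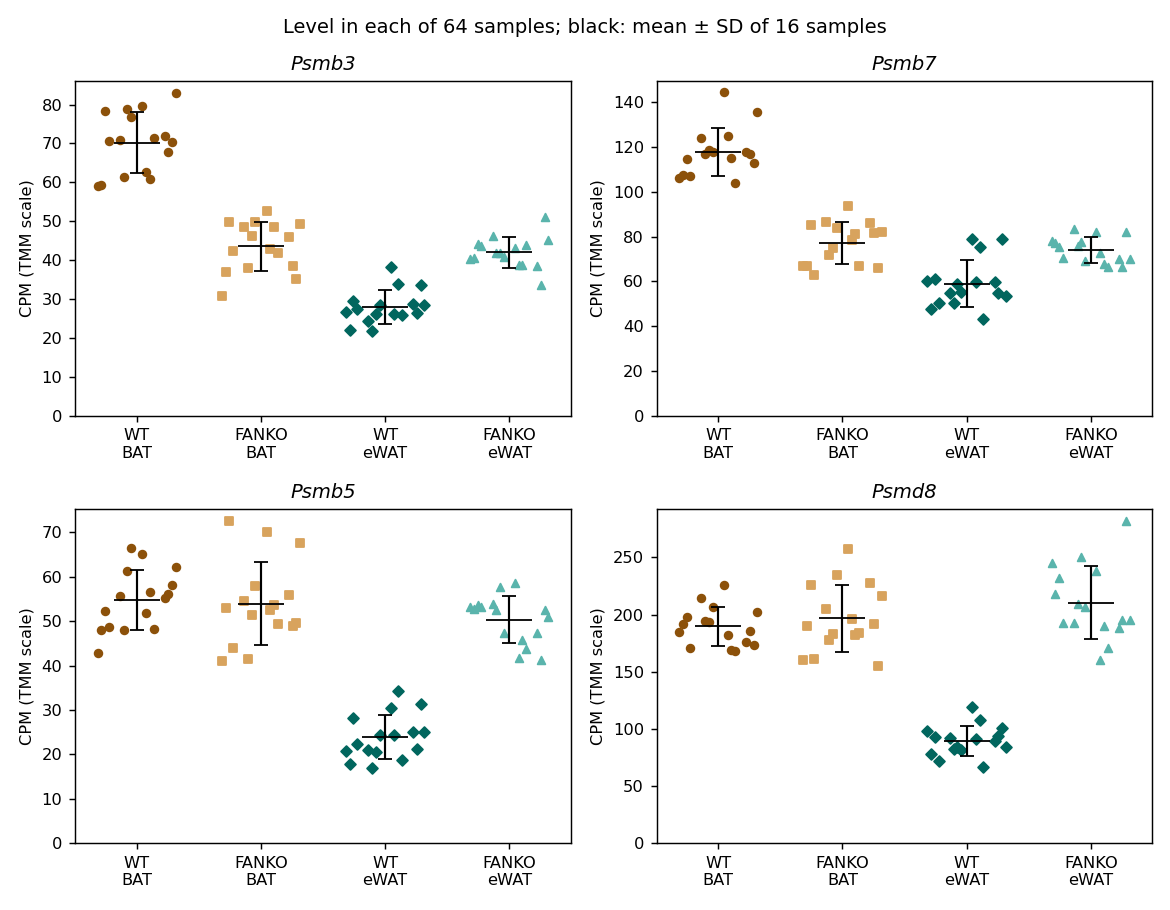
Level of *Psmb3*, *Psmb7*, *Psmb5* and *Psmd8* (CPM, TMM scale, axes from 0) in each of the 64 samples, by depot and genotype, with time points from ZT 6 to ZT 22 side by side within a group and mean ± SD of 16 samples in black. *Psmb3* and *Psmb7* of FANKO BAT lie below all WT BAT samples, which is not so with library size alone, and *Psmb5* and *Psmd8* of WT eWAT lie below all samples of the other groups, for *Psmb5* at 17.02 to 34.2 CPM, which with library size alone does not hold against WT BAT.

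In the alpha ring, which gates the entry of substrates, 7 of the 8 members were called higher in FANKO eWAT, by 0.31 to 0.64. The share of all genes was 27.6%. In FANKO BAT 4 were called lower, against 33.9% of all genes: *Psma1*, *Psma2*, *Psma3* and *Psma4*. Of these, library size alone called *Psma2* higher and the others not. *Psma4* had the largest of these decreases, -0.53 ± 0.06 (adjusted p = 5.4e-13), from a median of 100.1 CPM in WT to 68.5 CPM in FANKO BAT, with ranges of 82.7 to 118 and 55.7 to 90.5 that overlapped. *Psma3* fell by 0.47 in BAT, rose by 0.38 in eWAT and was among the 3 members with the smallest p for the difference between depots (adjusted p = 2.5e-16). *Psma6* had the largest rise of the ring in eWAT, 0.64 ± 0.06, from a median of 76.5 CPM (61.8 to 104) in WT to 124 CPM (96.2 to 138) in FANKO mice, while its medians in WT and FANKO BAT were 153 and 153 CPM. It also was higher in BAT than in eWAT of FANKO mice, by 0.35 ± 0.06 (adjusted p = 1.8e-06). *Psma5* and *Psma7* had differences of 0.12 ± 0.06 and -0.15 ± 0.06 in BAT, which did not pass the test.

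The 6 ATPases of the base were all called higher in FANKO eWAT, against 27.6% of all genes tested. Their differences ran from 0.28 to 0.63, with *Psmc4* at the top. *Psmc4* had a median of 52.2 CPM (35.4 to 67.3) in WT eWAT and 82.0 CPM (64.1 to 101) in FANKO eWAT, with overlap. In BAT 1 ATPase rose, *Psmc2* by 0.25 ± 0.06 (adjusted p = 1.1e-04), and 1 fell, *Psmc6* by 0.16, which library size alone called higher. The other 4 had differences between -0.08 and 0.14 that did not pass. Of all genes 33.1% were called higher and 33.9% lower in FANKO BAT. *Psmc4* was higher in BAT than in eWAT of FANKO mice, by 0.32 ± 0.07. Of the base subunits without ATPase activity, the scaffold subunit *Psmd1* fell by 0.37 in BAT and the scaffold subunit *Psmd2* by 0.17, while *Psmd4*, a ubiquitin receptor, had 0.12 ± 0.06 there and did not pass, and library size alone called all 3 higher in BAT. In eWAT *Psmd2* and *Psmd4* rose by 0.26 and 0.63.

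All 8 lid members were called higher in FANKO eWAT, by 0.27 to 1.23, against 27.6% of all genes tested. *Sem1*, also a lid subunit, does not match the symbol rule and is described apart. *Psmd8* (chr7:29174188-29180701), a structural subunit of the lid, had the largest rise of the family in eWAT. It ran from 66.4 CPM through a median of 90.3 to 119 in WT eWAT and from 160 through 201 to 282 in FANKO eWAT, without overlap. In BAT it ran from 169 through 189 to 226 in WT and from 156 through 191 to 258 in FANKO mice, and these groups overlapped. Its difference was 1.23 ± 0.07 in eWAT (adjusted p = 9.2e-23) and 0.05 ± 0.07 in BAT (adjusted p = 0.50), and BAT minus eWAT was 1.08 ± 0.07 in WT and -0.10 ± 0.07 in FANKO mice. In BAT *Psmd3* and *Psmd6* fell, each by 0.27, though library size alone called both higher. The remaining 6 lid members lay between -0.11 and 0.05 without passing the test, while 33.9% of all genes were called lower. *Psmd14*, the deubiquitinase of the lid, had -0.04 ± 0.07 in BAT and rose by 0.36 ± 0.07 in eWAT.

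*Psmd5*, *Psmd9* and *Psmd10* encode chaperones that assemble the base and are not part of the finished particle. All 3 were called higher in FANKO eWAT, by 0.35 to 0.51, against 27.6% of all genes tested. In FANKO BAT 33.1% of all genes were called higher and 33.9% lower. In BAT *Psmd10* rose by 0.40 ± 0.07 (adjusted p = 3.1e-07), from a median of 15.8 CPM (13.0 to 19.4) to 20.3 CPM (17.3 to 28.4) with overlap, while *Psmd5* fell by 0.40 ± 0.06 and *Psmd9* by 0.14 ± 0.05, of which library size alone called *Psmd9* higher and *Psmd5* not. Among members called, *Psmd5* had the largest depot difference in FANKO mice, where it was lower in BAT by 0.66 ± 0.06 (adjusted p = 6e-16), and in WT mice it was the 1 member whose depots were not called different, at 0.09 ± 0.06. In FANKO mice its BAT samples, 29.9 to 44.6 CPM, lay below all of its eWAT samples, 48.9 to 76.8 CPM. *Psmd10* was higher in BAT of both genotypes, by 0.59 ± 0.07 in WT and 0.47 ± 0.07 in FANKO mice. *Psmd9* was lower in BAT of FANKO mice by 0.26 ± 0.05, and it shares 1849 exon bases with *Gm26745* on the opposite strand.

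Members known from other tissues were near the limit of detection. *Psmb11*, the beta subunit of the thymus, was at 0 in 54 of 64 samples and had 13 counts in all, with at most 2 in a sample, and did not pass the filter. *Psma8*, the alpha subunit of the testis, had 445 counts in all and was at 0 in 6 samples. Its median was 0.11 CPM for WT and 0.40 CPM for FANKO mice in BAT, and 0.39 and 0.67 CPM in eWAT, with overlapping ranges throughout, and it was the 1 member called lower in BAT than in eWAT of WT mice and the 1 with the largest rise in FANKO BAT. Its fitted difference of 1.91 ± 0.40 in BAT thus rests on few reads, and the 6 samples at 0 were all of WT BAT. *Psmc3ip*, which is no subunit, had medians of 1.35 to 1.86 CPM in the 4 groups and was not called in any of the 5 comparisons of level. Of 4 annotated pseudogenes named after members, none had more than 3 counts in a sample.

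Few subunits were called rhythmic over the day. In WT BAT 1 member, *Psmd4*, was called rhythmic, against 13.9% of all genes tested, and 8 had an unadjusted p under 0.05 (32.0% of all genes). In FANKO BAT edgeR and DESeq2 both called 0 members, against 2.84% of all genes by edgeR, and 2 had an unadjusted p under 0.05 (21.5% of all genes). In WT eWAT edgeR and DESeq2 called 0, against 9.38% of all genes, with 9 under an unadjusted 0.05 (29.6%), and in FANKO eWAT 1 member, *Psma5*, was called, against 6.77%, with 3 under 0.05 (24.5%). The difference between the highest and lowest time-point mean had a median over 34 members, on the log2 scale, of 0.22 for WT and 0.20 for FANKO mice in BAT, and of 0.18 for both genotypes in eWAT. Over all genes the median range was 0.43 and 0.33 in BAT and 0.37 and 0.35 in eWAT. The test of a difference in rhythm between genotypes called 0 members in BAT and 0 in eWAT by edgeR and by DESeq2, against 2.76% and 1.15% of all genes by edgeR, and 5 members in BAT (19.2% of all genes) and 9 in eWAT (15.6%) had an unadjusted p under 0.05.

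*Psmd4* (chr3:95032694-95042614) was highest at ZT 10 in WT BAT. Its 4 samples there lay between 135 and 161 CPM, those at ZT 6 between 120 and 142, those at ZT 18 between 99.1 and 114 and those at ZT 22 between 107 and 133. All samples at ZT 18 thus lay below all samples at ZT 6 and ZT 10. The rhythm test gave an adjusted p of 4.7e-03 by edgeR, and the call was lost without replicate 2, 3 or 4 (adjusted p 0.021 to 0.065) and without the libraries rich in muscle or epididymis markers (adjusted p = 0.0465). In FANKO BAT the means at the 4 time points lay between 125 ± 21 (SD, n = 4) and 146 ± 15 CPM, and the difference of rhythms had an adjusted p of 0.12 by edgeR. *Psmd11* and *Psma7* followed in WT BAT, with adjusted p of 0.022 and 0.025, and in the test between genotypes *Psmd11* had the smallest p in BAT, adjusted to 0.080, followed by *Psma5* at 0.086.

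*Psma5* (chr3:108256926-108279974) was called in eWAT of FANKO mice. With lights on its mean was 39.0 ± 3.9 CPM (SD, n = 4) at ZT 6 and 40.4 ± 4.0 CPM at ZT 10, and with lights off 30.4 ± 3.5 CPM at ZT 18 and 32.4 ± 1.2 CPM at ZT 22. At ZT 6 and ZT 10 all 8 samples lay at or above 34.6 CPM, and at ZT 18 and ZT 22 the highest sample was at 35.4 CPM. Its adjusted p was 7.7e-03 by edgeR. The call was lost without replicate 2, 3 or 4 (adjusted p 0.0553 to 0.124) and with library size alone (0.0398). In WT eWAT the smallest rhythm p belonged to *Psmd5*, *Psmd6* and *Psmb4*, with adjusted p of 0.024, 0.075 and 0.082. In FANKO BAT it belonged to *Psmd7*, *Psmb1* and *Psma5*, at 0.11, 0.18 and 0.24, and in the other test between genotypes, in eWAT, to *Psma3*, *Psmc6* and *Psmb5*, at 0.11, 0.13 and 0.19, all by edgeR. After *Psma5*, *Psma1* and *Psmd11* had the smallest p in FANKO eWAT, at 0.14 and 0.19.

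The time point with the highest mean was shared by many members within a group, and these members come from the same samples. Of 34 members, 21 were highest at ZT 10 and 10 at ZT 22 in BAT of WT mice. In FANKO BAT 27 were highest at ZT 18, in WT eWAT 16 at ZT 18 and 17 at ZT 22, and in FANKO eWAT 26 at ZT 10, whereas each of the 4 time points was highest for 21% to 28.2% of all genes in every group. The mean log2 CPM of the 34 members in WT BAT was 6.45 ± 0.06 (SD, n = 4) at ZT 10 and 6.32 ± 0.12 at ZT 18. In BAT of FANKO mice it was 6.11 ± 0.20 at ZT 6 and 6.29 ± 0.18 at ZT 18. The median genotype difference of the members was 0.49, 0.55, 0.35 and 0.28 at ZT 6, 10, 18 and 22 in eWAT, with 33 or 34 of 34 members above 0 each time. In BAT it was -0.24, -0.20, -0.04 and -0.16, with 30, 28, 18 and 27 members below 0.

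**Figure D4:**
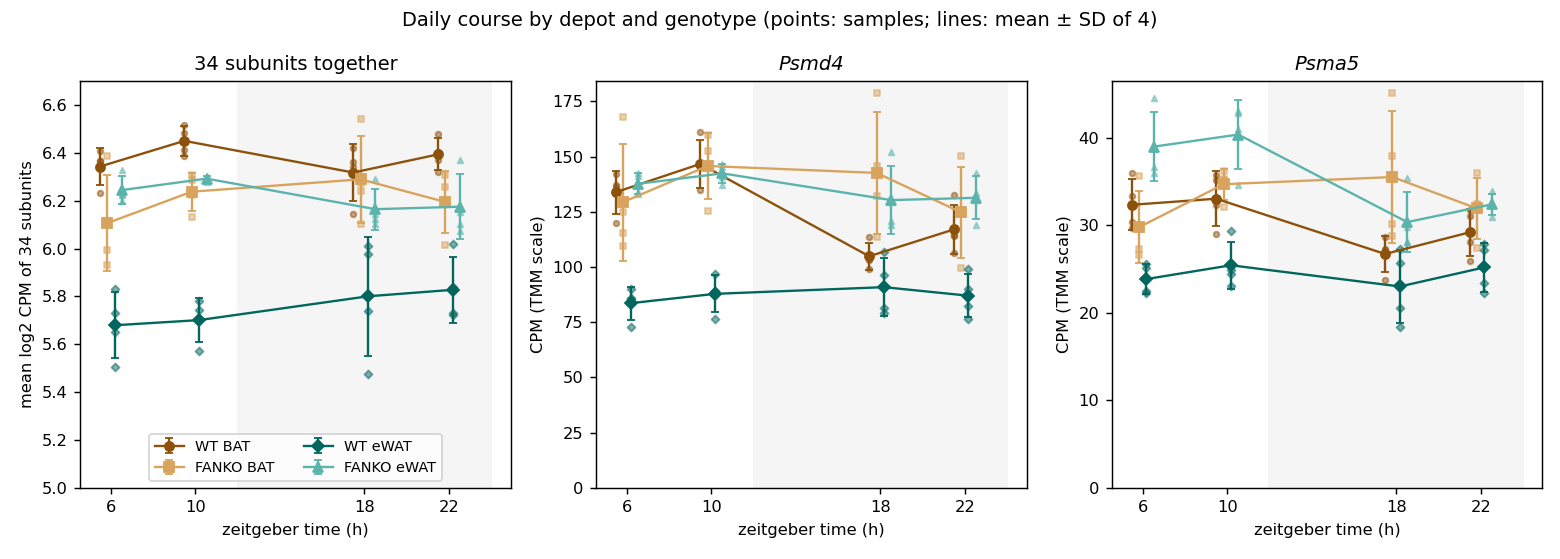
Mean log2 CPM of 34 subunits, and CPM of *Psmd4* and *Psma5*, against zeitgeber time (h; shaded, lights off) in 4 groups of depot and genotype, with points for samples and lines for the mean ± SD of 4. The 34 subunits together lie lowest in WT eWAT at every time point, at 5.68 to 5.83, and *Psmd4* of WT BAT is lowest at ZT 18, while the level of WT BAT above eWAT, which RLE factors and DESeq2 also gave, reverses for most members with library size alone.

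Genes that act with the proteasome were examined beside its subunits. *Psmb8*, *Psmb9* and *Psmb10* replace *Psmb5*, *Psmb6* and *Psmb7* in the immunoproteasome, which is typical of immune cells and of cells exposed to interferon. All 3 were called higher in FANKO mice in both depots, against 33.1% of all genes in BAT and 27.6% in eWAT. *Psmb8* ran from 7.34 CPM through a median of 12.7 to 19.5 in WT BAT and from 85.1 through 109.9 to 139 in FANKO BAT, and from 18 through 21.7 to 29.3 in WT eWAT and 21.7 through 40.5 to 67.4 in FANKO eWAT. The BAT groups did not overlap. Its difference was 3.10 ± 0.10 in BAT and 0.81 ± 0.10 in eWAT, while *Psmb9* and *Psmb10* rose by 2.54 ± 0.09 and 1.68 ± 0.08 in BAT and by 0.72 ± 0.09 and 0.41 ± 0.07 in eWAT. Per kilobase of exon, *Psmb5* stood at a median of 16.1 times *Psmb8* in WT BAT (12.2 to 24.8) and 1.80 times in FANKO BAT (1.19 to 2.56), with 3.79 times in WT and 4.81 times in FANKO eWAT. The corresponding ratio of *Psmb7* to *Psmb10* was 3.13 in WT BAT and 0.62 in FANKO BAT, and it lay below 1 in every FANKO BAT sample. Without division by length *Psmb7* had the higher median in FANKO BAT, at 79.9 CPM against 63.9 CPM for *Psmb10*. Exon lengths were taken over all annotated transcripts, so which gene of a pair is higher depends on them. The change of a ratio between groups does not.

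**Figure D5:**
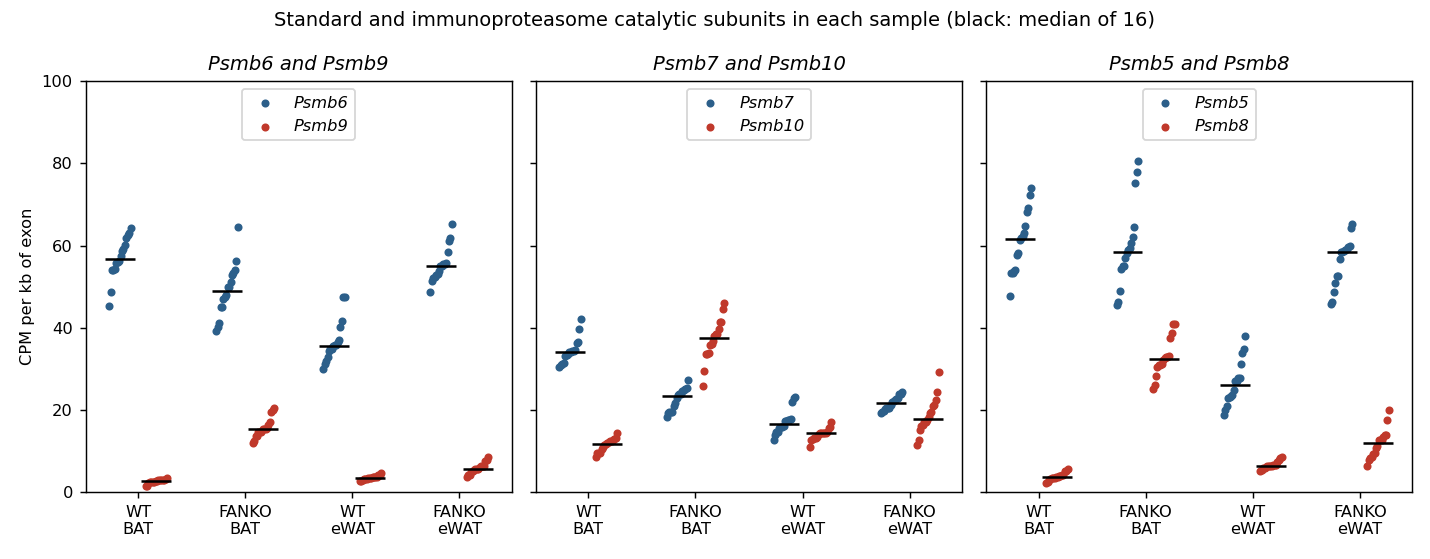
Level per kilobase of exon (CPM per kb, axis from 0) of each standard catalytic subunit, in blue, and the immunoproteasome subunit that takes its place, in red, in 64 samples, with medians of 16 in black. In FANKO BAT *Psmb8*, *Psmb9* and *Psmb10* lie above all WT BAT samples, and the median ratio of *Psmb7* to *Psmb10* is 0.62 there against 3.13 in WT BAT. Lengths are those of all annotated exons, and which gene of a pair is higher depends on them.

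In BAT markers of immune cells rose along with these genes, while in eWAT they were called in both directions. For the counts below, 33.1% of all genes were called higher and 33.9% lower in FANKO BAT. In FANKO eWAT the shares were 27.6% and 22.8%. The 7 immune markers, *Ptprc* and *Cd68* among them, were all called higher in FANKO BAT, and their sum ran from 45.0 through a median of 52.6 to 86.1 CPM in WT BAT and from 425 through 726 to 1055 CPM in FANKO BAT. In eWAT it ran from 253 through 300.1 to 362 in WT and from 249 through 342 to 569 in FANKO mice, with 3 markers called higher and 1 lower. The 6 adipocyte markers summed to a median of 10444 CPM in WT BAT and 5568 CPM in FANKO BAT (8836 to 12112 and 4025 to 7190), with 5 called lower, and to 14031 and 14185 CPM in WT and FANKO eWAT (10808 to 19107 and 11527 to 16578), with 4 called lower and 1 higher. The 4 brown adipocyte markers summed to 6526 CPM in WT BAT (4104 to 9685) and 2204 CPM in FANKO BAT (1207 to 3214), and 2 were called lower. The 3 stromal markers rose in BAT, from 267 to 553 CPM, and fell in eWAT, from 1299 to 737 CPM, and of the 3 endothelial markers 2 fell in BAT and 0 were called in eWAT by edgeR (1, *Kdr*, had an adjusted p of 0.035). In bulk tissue fewer cells of a type and less RNA per cell cannot be told apart, and the part of these shifts in the subunit levels was not tested. Muscle markers summed to 0.53 to 421 CPM in BAT and 6.22 to 114 CPM in eWAT, and epididymis markers to at most 0.14 CPM in BAT and 34.7 CPM in eWAT. Without the 15 libraries over 100 CPM of muscle or 10 CPM of epididymis markers, 16 members were called lower and 3 higher in FANKO BAT and 31 higher and 0 lower in FANKO eWAT. BAT exceeded eWAT for 33 members in WT mice, and the genotype effect was called lower in BAT than in eWAT for 31. These libraries were left out after the data were seen, and the shares of all genes called in this smaller fit are not given here.

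Of the 5 activators and inhibitors of the proteasome, 3 were called higher and 2 lower in FANKO BAT and 5 higher in FANKO eWAT on the TMM scale, against which library size alone moved the median of all genes by 0.58 in BAT and by -0.25 in eWAT. Of all genes tested 33.1% were called higher and 33.9% lower in BAT, and 27.6% higher and 22.8% lower in eWAT. *Psme1* and *Psme2*, which form the interferon-inducible 11S cap, rose by 0.50 ± 0.05 and 0.27 ± 0.06 in BAT and by 0.26 ± 0.05 and 0.45 ± 0.06 in eWAT. The inhibitor *Psmf1* also rose in both, by 0.42 ± 0.06 and 0.19 ± 0.06. *Psme4*, the nuclear activator PA200, fell by 0.39 ± 0.04 in BAT and rose by 0.14 ± 0.04 in eWAT, and *Psme3* fell by 0.13 ± 0.04 and rose by 0.44 ± 0.04. Of the 5 chaperones that build the core, 3 were called lower in BAT and 5 higher in eWAT. *Psmg1* fell by 0.86 ± 0.05 in BAT (adjusted p = 4.6e-22) and rose by 0.33 ± 0.05 in eWAT, while *Pomp*, which matures the beta ring, had 0.12 ± 0.06 in BAT and rose by 0.26 ± 0.06 in eWAT. Library size alone moves all genes up by 0.58 in BAT, so that of these falls in BAT only that of *Psmg1* is larger than the shift.

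Proteins that bind the particle were called in both directions on the TMM scale, and library size alone moved the median difference of all genes in BAT by 0.58. Of 12, 7 were called lower and 2 higher in FANKO BAT and 11 higher and 1 lower in FANKO eWAT, so that 9 of 12 were called in BAT beside 67.0% of all genes and 12 of 12 in eWAT beside 50.3%. *Sem1*, a small subunit of the lid, fell by 0.58 ± 0.05 and rose by 0.29 ± 0.05, and *Adrm1*, a ubiquitin receptor, fell by 0.25 ± 0.06 and rose by 0.43 ± 0.06. The shuttle factor *Ubqln2* went the other way, with a rise of 0.31 ± 0.09 in BAT and a fall of 0.89 ± 0.09 in eWAT, and its paralog *Ubqln4* fell by 0.67 ± 0.04 and rose by 0.44 ± 0.04. *Nfe2l1* itself ran from 506 through a median of 591 to 673 CPM in WT BAT and from 332 through 456 to 537 in FANKO BAT, with overlap. In eWAT it ran from 311 through 379 to 445 in WT and from 492 through 548 to 626 in FANKO mice, without overlap. Its difference was -0.38 ± 0.05 in BAT (adjusted p = 1.7e-09) and 0.54 ± 0.05 in eWAT (adjusted p = 9.2e-14), and that between depots -0.92 ± 0.07 (adjusted p = 2.2e-17). *Nfe2l1* was listed together with *Nfe2l2*, *Ddi2*, *Ngly1*, *Vcp*, *Nploc4* and *Ufd1*. Of these 7 genes, *Nfe2l1* included, 5 were called lower in BAT and 5 higher in eWAT, against 33.9% and 27.6% of all genes. *Ngly1*, the glycanase, fell by 0.70 ± 0.04 in BAT and had -0.01 ± 0.04 in eWAT, the protease gene *Ddi2* fell by 0.16 ± 0.05 and had 0.11 ± 0.05, and *Vcp*, the segregase, fell by 0.26 ± 0.05 and rose by 0.21 ± 0.05.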

How the data were processed

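RNA sequencing of 64 samples was analysed, with groups taken from the sample labels. The authors depleted ribosomal RNA, prepared stranded libraries, sequenced paired ends, aligned them with STAR 2.5.3a to GRCm38.p5 and deposited unnormalized counts per gene from featureCounts 1.5.3 (versions per the processing notes of the submitters). Its strand and multi-mapping options are not given in the sources used here. Symbols, coordinates and exon lengths came from GENCODE M21 on GRCm38, and 9 members share exon bases with another gene.

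Counts were used as deposited with R 4.3.3, edgeR 4.0.16 and DESeq2 1.42.0, and figures with matplotlib 3.10.9. Genes were filtered by filterByExpr on the 16 groups (minimum count 10, minimum total 15) and scaled by TMM. One quasi-likelihood fit to all samples held a mean, a cosine and a sine (period 24 h) for each depot and genotype, 12 coefficients in all, and p values were adjusted by Benjamini-Hochberg over 20249 genes at an FDR of 0.01, which the study also used. SEs are those of the fitted log2 difference. Log2 CPM used a prior count of 2. The fit was tested on simulated counts. The labels do not say whether samples came from separate animals, so p values measure the spread between these samples.

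Members and lists were chosen with earlier results of these data known, and promoter motifs after the data were seen. Named were the catalytic subunits, the 3 largest increases and decreases of each level comparison, the 3 smallest p of each other test and members that failed the filter. Other members named under a role were chosen after their values were seen. No 2 libraries were identical, and pairs within a group differed by at least 5.00 chi-square units per degree of freedom. Alternatives were RLE factors, library size alone, scaling without mitochondrial genes, no filter, DESeq2, time point as a factor, blocks by replicate number, each replicate number left out and, added later, libraries rich in muscle or epididymis markers left out and levels relative to the median of all genes in each sample.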

Additional observations from a re-analysis of the deposited data

Results flagged for a closer look

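For 31 members the genotype effect in BAT lay below that in eWAT by a direct test in the same edgeR fit on the TMM scale. Of all genes tested 32.1% were called below 0 and 32.2% above 0. With library size alone the direction changed for most members, at a median of 0.21 beside 0.88 for all genes. Those of the 31 named in the report are given here with their difference of effects on the log2 scale under TMM. It was -1.28 for *Psmb3*, -1.18 for *Psmd8*, -1.10 for *Psmb5*, -0.94 for *Psmb7*, -0.89 for *Psma4*, -0.85 for *Psma3* and -0.82 for *Psmb6*. It was -0.76 for *Psmd5*, -0.75 for *Psmb1*, -0.65 for *Psma6*, -0.62 for *Psmc4* and -0.50 for *Psmd9*. The largest adjusted p among these 12 was 1.9e-07, that of *Psmc4*. No group of 4 samples held a sample that stood apart by Dixon's test, over 48 groups tested for the mean of the members, *Psmd4* and *Psma5*, where chance marks about 1 in 20.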

How the results depend on the processing

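RLE factors and DESeq2 each called 6 members higher and 14 lower in FANKO BAT, 10 higher and 2 lower in BAT of FANKO mice, and 1 higher and 30 lower for the difference of genotype effects, where the 1 is *Psma8*. Library size alone gave 29 higher and 0 lower in FANKO BAT (median 0.44), 15 higher and 1 lower in FANKO eWAT (median 0.14), 8 higher and 17 lower for the depots of WT mice (median -0.16), 11 higher and 1 lower for those of FANKO mice, and 18 higher and 3 lower for the difference of effects (median 0.21). It reversed *Psmb6* in the WT depot comparison (-0.10), in BAT (0.37) and in the difference of effects (0.0114), *Psma4* in BAT (0.0583) and *Psmb5* in BAT (0.57). *Psmb5* in BAT, which is not called, also changed sign with DESeq2 (0.0263), RLE factors (0.0269) and without libraries rich in muscle or epididymis markers (0.0054), and ran from -0.0374 to 0.0152 without 1 replicate number. Lower calls in BAT of FANKO mice numbered 3 without a filter and 1 without those libraries.

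Rhythm calls in WT BAT numbered 4 with library size alone, 0 without a filter and 0 without the marker-rich libraries. The call in FANKO eWAT was lost (0 members) with library size alone, without a filter, with scaling free of mitochondrial genes, with time point as a factor and without the marker-rich libraries. Leaving out 1 replicate number at a time gave 3 to 5 members higher and 13 to 17 lower in FANKO BAT (median -0.17 to -0.10), 33 higher and 0 lower in FANKO eWAT (0.36 to 0.39) and 31 to 33 higher and 1 lower for WT depots (0.53 to 0.61). It gave 3 to 7 higher and 2 to 6 lower for FANKO depots. The median there ran from -0.04 without replicate 1 to 0.03 without replicate 3, and the 2 lower came without replicate 2 and without replicate 3. It gave 0 to 1 higher and 29 to 31 lower for the difference of effects (-0.66 to -0.55). Rhythm calls ran from 0 to 1 in WT BAT, WT eWAT (*Psmd6*, without replicate 4, adjusted p = 4.3e-03 by edgeR) and FANKO eWAT and were 0 in FANKO BAT and in both tests between genotypes. For the catalytic subunits and the members named by rank in a comparison, these alternatives gave 611 values. Of these, 565 kept direction and side of the threshold, 34 lost it, 3 gained it and 9 changed sign. Members named by rank have the largest differences or smallest p, so these counts do not describe the whole family. Over all members tested, library size alone moved the median difference in FANKO BAT from -0.14 to 0.44.

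Equal replicate numbers were not taken to pair the samples, since the labels give no shared animal or batch and not every pair correlated above 0.1. Over 32 pairs of depots with the same genotype, time point and number, the correlation of deviations from group means had a median of 0.12 (-0.22 to 0.48), and 19 of 32 lay above 0.1. Of the 32 BAT samples, 17 correlated best with the eWAT sample of their own number among 4 candidates, where chance gives 1 in 4, which is a hint of pairing from the data and not from the design. With the number as a replicate block 18 members were called lower and 3 higher in FANKO BAT, 33 higher in FANKO eWAT, and 6 higher and 7 lower in BAT of FANKO mice. With genotype, time point and number as the replicate block the last was 6 higher and 8 lower, and the difference of effects was lower for 31.

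Counts give relative levels, so that which scaling is nearer to the amount of RNA per cell was not tested. Depth does not limit the subunits themselves, since those other than *Psma8* and *Psmb11* had at least 74 counts in each sample. It limits *Psma8* and *Psmb11*. With 4 time points and 4 samples at each, a daily range of about 0.2 on the log2 scale was mostly within the spread of replicates.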

Other observations

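Genes of ubiquitin supply and activation outside the particle were also measured. The polyubiquitin gene *Ubb* was lower in BAT of WT mice by 1.01 ± 0.07, rose by 0.56 ± 0.07 in FANKO BAT and had -0.07 ± 0.07 in eWAT. *Rps27a* rose by 0.25 ± 0.07 in BAT and 0.32 ± 0.06 in eWAT. The activating enzyme *Uba1* had -0.07 ± 0.04 in BAT and rose by 0.36 ± 0.04 in eWAT. These values are on the TMM scale, and library size alone moved the median difference of all genes in BAT by 0.58.

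Rhythm was also tested in partners of the proteasome. In WT BAT 13.9% of all genes were called. The calls there numbered 1 of 5 activators and inhibitors, 0 of 5 chaperones and 1 of 12 bound proteins. They also numbered 2 of 7 genes for *Nfe2l1* and those listed with it, and 2 of 6 ubiquitin and activating enzyme genes. In WT eWAT, where 9.38% of all genes were called, these lists held 1, 1, 4, 0 and 1. By edgeR, *Ubb* had an adjusted p of 4.5e-04 in WT BAT and 1.2e-03 in WT eWAT, *Ubqln1* 1.8e-04 and 4.8e-04, and *Ubqln4* 1.7e-05 in WT eWAT. *Nfe2l2*, a factor related to *Nfe2l1*, was called in WT BAT, FANKO BAT and FANKO eWAT with adjusted p of 2.7e-03, 3.4e-03 and 1.9e-03, against 2.84% of all genes in FANKO BAT and 6.77% in FANKO eWAT. Among the lists of proteasome partners, *Psmg1* was the 1 gene whose rhythm differed between genotypes in BAT, at an adjusted p of 6.5e-03, and edgeR called 0 of them in eWAT. That subunits and partners differ in rhythm was not tested.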
